A study of Homo sapiens with 8 samples.

Results

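Cholesterol and fatty acid synthesis genes were examined in DU145, an established epithelial prostate carcinoma line from a brain metastasis, with and without the transcription factor SOX11. The set holds 31 genes, found by matching Ensembl identifiers to gene symbols, out of 32066 genes in the deposited count table. All 31 passed the filter on low counts, which kept 15665 genes. The set was divided into a sterol branch of 17 genes, a group of 5 regulators and transport genes, and a fatty acid branch of 9 genes. The control group was 4 libraries of DU145 labelled as control, and the SOX11 group was 4 libraries of DU145 labelled as overexpressing SOX11. Both groups were grown in DMEM with 1% P/S and 10% FBS, a serum that carries lipoproteins. No label names the vector or its promoter, or says whether each line was a clone or a pool. Nothing in the labels states that the 4 libraries of a group came from separate cultures, so the p-values measure the spread between these libraries, which may be technical.

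Cholesterol is built from acetyl-CoA through mevalonate and squalene, and fatty acids are built from the same acetyl-CoA through malonyl-CoA. Most enzymes of both routes are transcribed under sterol regulatory element-binding proteins (SREBPs), membrane-bound precursors that SCAP escorts out of the endoplasmic reticulum when sterols are low and that INSIG proteins hold back when sterols are high. SREBP-2, from SREBF2, acts mainly on the sterol branch, and SREBP-1c, a form from SREBF1, mainly on the fatty acid branch. In prostate cancer the route is known for its control by androgen receptor, which DU145 cells largely lack.

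Total counts ran from 14641250 to 18706095 per library. The 31 genes took 0.596% to 0.667% of the counts in controls and 0.611% to 0.703% in SOX11 libraries. SOX11 itself (ENSG00000176887; GRCh38 chromosome 2, 5692667-5701385) had 0 counts in the 4 control libraries and 315, 303, 317 and 310 counts in the SOX11 libraries, so the libraries matched their labels. Against a floor of 3 counts over the control group (0.0475 CPM, a count scaled to library size), its level of 19.2 ± 0.943 CPM (SD, n = 4) lay at least 404-fold higher (adjusted p = 2.11e-21 in edgeR). All 5 epithelial markers examined (KRT8, KRT18, KRT19, EPCAM, CDH1) passed the filter, with a summed level of 1497 to 1761 CPM in the control group and 1200 to 1206 CPM in the SOX11 group. The keratins KRT8 (-0.51), KRT18 (-0.42) and KRT19 (-0.68) were called lower, and EPCAM (0.10) and CDH1 (-0.11) were not called. Adipocyte and hepatocyte markers, of other lipid-making cells, summed to 0.511 CPM at most in any library, and blood and endothelial markers to 0.755 and 0.639 CPM at most. Fibroblast markers summed to 2.7 to 4.79 CPM in the control group and 5.62 to 7.53 CPM in the SOX11 group, nearly all of it COL1A1, and DCN and LUM are not among the genes of the table. The part of these marker differences in the results below was not tested, and in bulk RNA fewer cells of a type and less RNA per cell cannot be told apart.

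Genes with an adjusted p below 0.05 in edgeR's quasi-likelihood test, adjusted over all genes tested, are named called, and by this rule 20% of all genes tested were called, 10.3% higher and 9.67% lower with SOX11. Of the 31 synthesis genes, 3 were called higher (ACACA, ELOVL5, SREBF2) and 2 lower (EBP, ELOVL6). That is 16.1% of the set, near the share called among all genes, so the count says nothing particular about these genes. No called member moved by more than 0.20 on the log2 scale, and none reached a 2-fold change, as 0.938% of all genes tested did with a call. The median log2 fold change (SOX11 minus control) was -0.02 over the set and 0.00 over all genes tested, and the median size of the change regardless of sign was 0.0653 against 0.106. These small values came with small errors: the median standard error (SE) was 0.0556, against 0.0702 over all genes tested. The 95% interval of the change lay within ±0.3 for 25 of the 31 genes and within ±0.5 for 30, and TM7SF2 was the exception. Of all 15665 genes tested, 8529 lay within ±0.3 and 11345 within ±0.5. The sizes and intervals were not compared with those of genes of like counts. Libraries of the groups did not overlap for 5 members, the same 5 that were called, against 21.1% of all genes tested. The count of 5 became 3 without control 2, control 4 or SOX11 3, and 9 without SOX11 4.

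**Figure D1:**
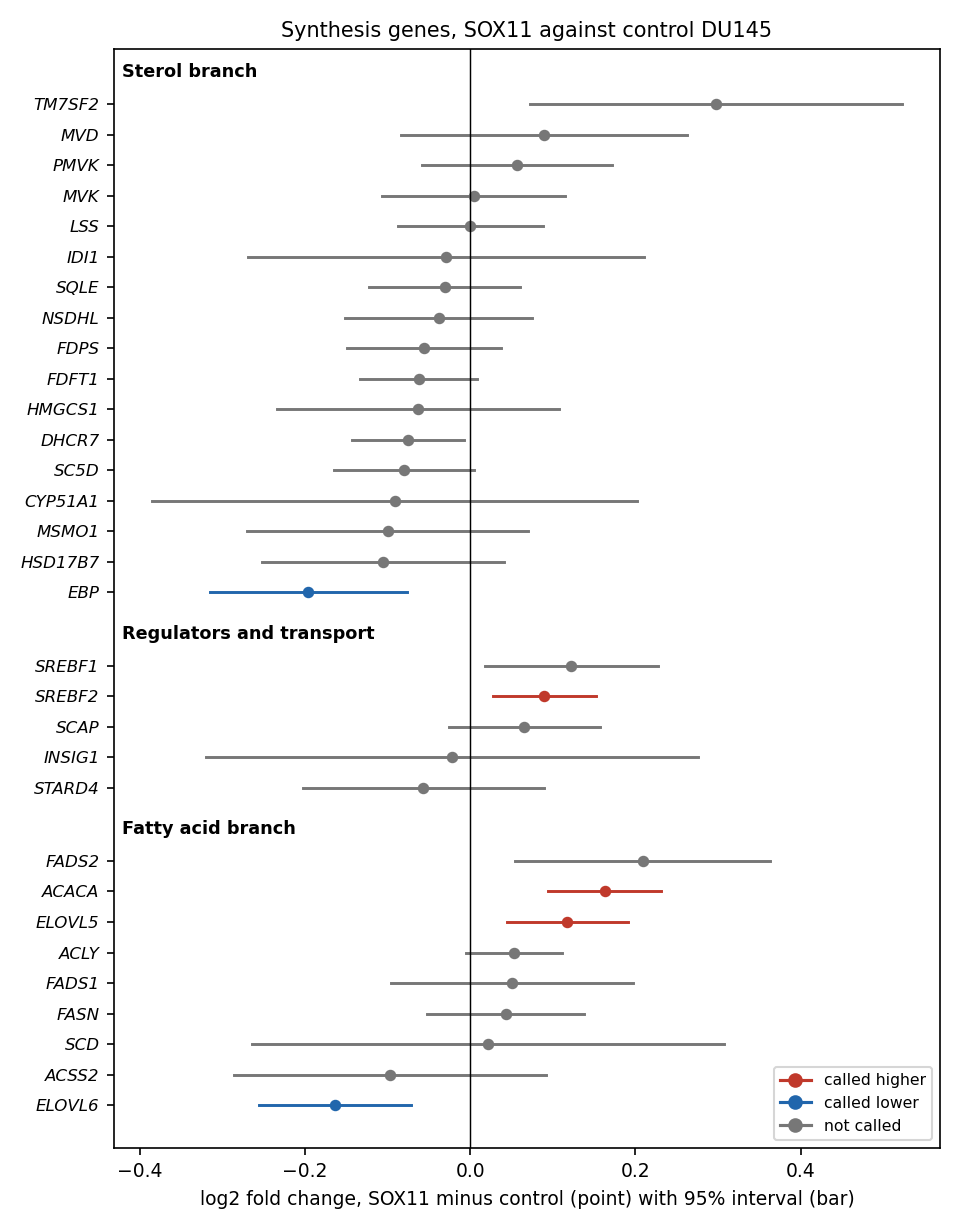
Log2 fold change of each of the 31 genes (point, SOX11 minus control) with its 95% interval (bar), in the 3 groups of genes; red and blue mark genes called higher or lower at an adjusted p below 0.05 in edgeR. The 5 called genes lie between -0.20 and 0.16, and 13 of the 17 sterol branch points lie left of 0 while 7 of the 9 fatty acid branch points lie right of it.

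The sterol branch had 1 of 17 genes called, a share of 5.88%, with a median of -0.06 and 13 of 17 genes below 0. The fatty acid branch had 3 of 9 called, 33.3%, with a median of 0.05 and 7 of 9 genes above 0. Of all 15665 genes tested, 7785 lay below 0 and 7880 above. The difference between the branches was not tested. The sterol branch count became 0 without SOX11 3, 2 without control 1 or SOX11 1, and 3 without SOX11 4, while the fatty acid branch count stayed between 2 and 4. The sterol branch summed to 2228, 2004, 2186 and 1983 CPM in control libraries 1 to 4 and to 2091, 2145, 1979 and 1911 CPM in SOX11 libraries 1 to 4. The fatty acid branch summed to 4016, 3655, 4085 and 3607 CPM in the controls, and in the SOX11 libraries the sums were 4141, 4318, 3850 and 3715 CPM. The regulators summed to 478, 453, 468 and 452 CPM and to 506, 497, 468 and 461 CPM, in the same order. In each of these sums the groups overlapped, and libraries SOX11 3 and SOX11 4 were the lowest of their group. SOX11 3 and SOX11 4 lay below every control for the sterol branch. SOX11 1 and SOX11 2 lay above every control for the fatty acid branch and the regulators.

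Promoter sequences are shown for 4 genes. SREBF2 was called higher and was the only one of the 28 members searched with a match to the sterol regulatory element. A link between its match and its call was not tested. MSMO1, INSIG1 and SCD were chosen after their values were seen, 1 gene from each of the 3 groups of genes. Their levels spread widely between libraries, though for MSMO1 the highest SOX11 library exceeded the lowest by only 1.19-fold. TM7SF2, of the same branch as MSMO1, spread more, by 1.33-fold in both groups. The 250 bases before each transcription start listed by RefSeq (GRCh38.p14) were searched on both strands for the sterol regulatory element TCACNCCAC, the NF-Y box CCAAT, the E-box CACGTG, and the SOX-type sequences AACAAT and ACAAAG. None of these 5 motifs contains another. Windows were listed for 28 of the 31 genes, with several starts for 8 of these 28. FDFT1, FASN and SQLE had no window and were not searched. CCAAT was present for 21 of the 28, or 75%, against 41.1% of the genes tested that had a window and 32% of all windows. TCACNCCAC was present for 1 of 28, SREBF2, against 1.08% of the genes tested. CACGTG was present for 4 (SC5D, SCAP, INSIG1, ELOVL5) against 11%, ACAAAG for 4 (HMGCS1, EBP, SC5D, FADS2) against 12.7%, and AACAAT for PMVK alone against 6.64%. These matches describe letters and not bound sites, and a window with no match says nothing of the factor. The stretches below run 5′ to 3′ on the strand of the gene, leave out bases annotated as exons of protein-coding genes, and show motif matches in capitals, where ATTGG is CCAAT on the other strand.
SREBF2 promoter, chr22:41832855-41833078, plus strand: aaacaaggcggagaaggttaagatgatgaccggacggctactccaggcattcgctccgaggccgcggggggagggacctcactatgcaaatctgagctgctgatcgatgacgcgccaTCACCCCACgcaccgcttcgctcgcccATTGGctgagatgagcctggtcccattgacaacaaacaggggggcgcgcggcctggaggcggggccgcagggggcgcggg
MSMO1 promoter, chr4:165327419-165327622, plus strand: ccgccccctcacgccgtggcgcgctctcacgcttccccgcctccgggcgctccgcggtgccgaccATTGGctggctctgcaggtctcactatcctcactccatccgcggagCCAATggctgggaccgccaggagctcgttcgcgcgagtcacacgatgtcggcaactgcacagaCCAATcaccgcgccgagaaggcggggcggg
INSIG1 promoter, chr7:155297628-155297775, plus strand: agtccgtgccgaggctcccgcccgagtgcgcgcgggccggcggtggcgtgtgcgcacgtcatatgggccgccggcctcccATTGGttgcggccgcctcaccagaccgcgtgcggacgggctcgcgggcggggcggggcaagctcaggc
SCD promoter, chr10:100346983-100347123, plus strand: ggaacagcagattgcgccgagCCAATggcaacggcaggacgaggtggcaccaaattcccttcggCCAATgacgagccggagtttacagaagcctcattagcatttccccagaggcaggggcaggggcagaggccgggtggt
The SREBF2 stretch holds TCACCCCAC followed by ATTGG. MSMO1 holds 3 CCAAT boxes, on both strands, SCD holds 2 on the printed strand, and the INSIG1 stretch holds 1. The CACGTG of INSIG1 lies outside its printed stretch.

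The 6 genes examined for the steps from acetyl-CoA units to farnesyl diphosphate showed no call. They encode HMG-CoA synthase (HMGCS1), mevalonate kinase (MVK), phosphomevalonate kinase (PMVK), mevalonate diphosphate decarboxylase (MVD), isopentenyl diphosphate isomerase (IDI1) and farnesyl diphosphate synthase (FDPS). Their log2 fold changes ran from -0.06 (HMGCS1) to 0.09 (MVD), with a median of -0.01, and 0 of 6 had an unadjusted p below 0.05. FDPS had the highest level per length of the sterol branch, 104 RPKM (CPM divided by the exon length in kilobases) as the mean over all libraries. FDPS had 418, 374, 415 and 369 CPM in control libraries 1 to 4 and 391, 400, 370 and 355 CPM in SOX11 libraries 1 to 4. The groups overlapped, with controls 1 and 3 above every SOX11 library and controls 2 and 4 among them. Its log2 fold change was -0.06 (95% interval -0.15 to 0.04; edgeR adjusted p = 0.432).

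HMGCS1, which condenses acetoacetyl-CoA with acetyl-CoA at the entry to the pathway and was singled out after its values were seen, had 318, 263, 317 and 277 CPM in the control libraries and 277, 310, 268 and 268 CPM in the SOX11 libraries. The spread inside each group was wider than the distance between the group means, 294 ± 27.7 and 281 ± 19.8 CPM (SD, n = 4). IDI1 had the widest interval of the 6, -0.27 to 0.21. PMVK (0.06) and MVK (0.00) had narrower ones, -0.06 to 0.17 and -0.11 to 0.12. MVD, 62.8 ± 2.53 CPM in the control group and 66.8 ± 8.74 CPM in the SOX11 group, was called when SOX11 4 was left out (0.17, edgeR adjusted p = 0.0206) and not with all libraries (adjusted p = 0.503). MVK shares exonic positions with MMAB on the opposite strand, which had nearly the same mean count (537 against 546). The strand setting of the counter is not given in the sources used here, so reads of such pairs could not be told apart.

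From squalene to cholesterol, 10 of 11 genes lay below 0 and 1 was called. These genes encode squalene synthase (FDFT1), squalene epoxidase (SQLE), lanosterol synthase (LSS), the demethylation and reduction enzymes CYP51A1, TM7SF2, MSMO1, NSDHL and HSD17B7, and the late enzymes EBP, SC5D and DHCR7, which move and set the ring double bonds. LSS lay at 0.00 and its sign turned with upper quartile scaling and with a stricter filter, and the other 9 kept theirs under the scalings tried. The median log2 fold change was -0.08, and 3 of the 11 (EBP, TM7SF2, DHCR7) had an unadjusted p below 0.05 in edgeR.

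EBP, the sterol isomerase that shifts the double bond from position Δ8 to Δ7, fell. EBP (chromosome X, 48521158-48528716) had 29.6, 28.1, 29 and 27.2 CPM in control libraries 1 to 4 and 26.0, 26.0, 23.1 and 24.3 CPM in SOX11 libraries 1 to 4. Every SOX11 library lay below every control library. The group means were 28.5 ± 1.02 and 24.9 ± 1.41 CPM (SD, n = 4), a fold of 0.873 and a log2 fold change of -0.20 ± 0.0585 (SE; 95% interval -0.32 to -0.08; edgeR adjusted p = 0.0161). The call held in 15 of 16 settings and was lost without SOX11 3, the lowest library (-0.16, adjusted p = 0.0744).

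TM7SF2, a sterol Δ14-reductase, had the largest difference of the 31 genes and was not called. It had 27.5, 21.3, 24.5 and 20.7 CPM in the control libraries and 31.8, 31.9, 27.4 and 24.1 CPM in the SOX11 libraries. SOX11 1 and SOX11 2 lay above every control, SOX11 3 lay just below control 1, and SOX11 4 lay below controls 1 and 3. The log2 fold change was 0.30 ± 0.104 (SE; 95% interval 0.07 to 0.52; edgeR adjusted p = 0.0638). The call was made without control 1 (0.38, adjusted p = 0.00397), without SOX11 4 (0.37, adjusted p = 0.00363) and by limma-voom (adjusted p = 0.0167) and DESeq2 (adjusted p = 0.0152). TM7SF2 shares exonic positions with VPS51 on the same strand, which had a larger mean count (866 against 420), so part of its count may belong to that gene.

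HSD17B7, a ketoreductase of the demethylation steps, had 29.1, 23.7, 26.9 and 24.1 CPM in the control libraries and 24.9, 25.4, 25.1 and 20.6 CPM in the SOX11 libraries. The groups overlapped, and SOX11 4 stood below the rest (log2 fold change -0.11 ± 0.0717, SE; edgeR adjusted p = 0.337). MSMO1, a sterol C4-methyl oxidase named after its values were seen, had 61.6, 50.7, 57.6 and 47.5 CPM in the control libraries and 49.8, 56.8, 47.6 and 48.4 CPM in the SOX11 libraries. Its controls alone spanned more than the distance between the group means, 54.4 ± 6.42 and 50.6 ± 4.19 CPM.

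DHCR7, which makes cholesterol from 7-dehydrocholesterol, had a log2 fold change of -0.08 (95% interval -0.14 to -0.01; edgeR adjusted p = 0.111) and was called without SOX11 1 (-0.10, adjusted p = 0.0347). SC5D, the sterol C5-desaturase before it, had -0.08 (adjusted p = 0.185), and FDFT1, at the branch point to sterols, had -0.06 (adjusted p = 0.223). SQLE (-0.03), LSS (0.00) and NSDHL (-0.04) had 95% intervals within ±0.2. CYP51A1, the lanosterol 14-demethylase, was the lowest of the set, with 1.69 RPKM and as few as 72 counts in a library. Its interval was -0.39 to 0.20 around -0.09. CYP51A1 is overlapped on its strand by 2 annotated genes without counts in the table and has 3 annotated pseudogenes. FDPS has 8 pseudogenes, so both levels are uncertain. HSD17B7 (2), SCD (1) and FADS2 (1) also have annotated pseudogenes.

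Among the regulators, SREBF2 was called higher by a small amount. SREBF2 (chromosome 22, 41833079-41907308), the gene whose promoter is printed above, had 235, 235, 231 and 234 CPM in control libraries 1 to 4 and 257, 250, 245 and 245 CPM in SOX11 libraries 1 to 4. All 4 SOX11 libraries lay above all controls, and the controls differed by a factor of only 1.02. The means were 234 ± 1.82 and 249 ± 5.58 CPM (SD, n = 4), a log2 fold change of 0.09 ± 0.0305 (SE; 95% interval 0.03 to 0.15; edgeR adjusted p = 0.0360). At this size the call was fragile. It held in 7 of 16 settings, and the settings that ended it included DESeq2 (adjusted p = 0.0513), no filter (0.148), and leaving out control 1 (0.0502), 2 (0.0747), 3 (0.103) or 4 (0.0767) or SOX11 1 (0.117) or 3 (0.0530), while its log2 fold change stayed between 0.07 and 0.10. SREBF2 was also the most abundant of the 5 per length, at 32.0 RPKM.

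SREBF1 had 64.7, 56.9, 63.9 and 59.3 CPM in the control libraries and 71.7, 68.3, 65.9 and 60.0 CPM in the SOX11 libraries. SOX11 1, 2 and 3 lay above every control and SOX11 4 among them. Its log2 fold change was 0.12 ± 0.0511 (SE; edgeR adjusted p = 0.0950), and it was called without SOX11 4 (adjusted p = 0.0228) or without control 1 (adjusted p = 0.0490). The gene-level count does not separate the SREBP-1a and SREBP-1c transcripts, and SREBF1 shares exonic positions with RAI1 on the opposite strand. SCAP, the escort protein, had 0.07 (95% interval -0.03 to 0.16), and STARD4, a soluble sterol carrier, had -0.06 (-0.20 to 0.09).

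INSIG1, which retains SCAP and is itself a strong SREBP target, was singled out after its values were seen. It had 64.4, 53.3, 62.8 and 50.04 CPM in the control libraries and 63.4, 63.7, 50.1 and 49.4 CPM in the SOX11 libraries. Each group held 2 libraries between 62.8 and 64.4 CPM and 2 between 49.4 and 53.3 CPM, so the groups overlapped almost fully. The log2 fold change was -0.02 ± 0.126 (SE; 95% interval -0.32 to 0.28; edgeR adjusted p = 0.932).

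In the fatty acid branch, ACACA and ELOVL5 rose and ELOVL6 fell. ACACA (chromosome 17, 37084988-37406818) encodes acetyl-CoA carboxylase 1, which makes malonyl-CoA, the committed step of fatty acid synthesis. ACACA had 204, 201, 209 and 193 CPM in control libraries 1 to 4 and 231, 233, 220 and 219 CPM in SOX11 libraries 1 to 4. The groups did not overlap. The means were 202 ± 6.84 and 226 ± 7.0 CPM (SD, n = 4), a fold of 1.12 and a log2 fold change of 0.16 ± 0.0335 (SE; 95% interval 0.09 to 0.23; edgeR adjusted p = 0.000602). ACACA was the only member called in all 16 settings, with an adjusted p of 0.00594 at most.

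ELOVL6 and ELOVL5 elongate different chains, ELOVL6 saturated and monounsaturated fatty acids of the palmitate type and ELOVL5 polyunsaturated ones, and they moved in opposite directions. ELOVL6 (chromosome 4, 110045846-110199199) had 76.5, 67.0, 69.5 and 66.7 CPM in the control libraries and 62.7, 63.9, 61.7 and 61.3 CPM in the SOX11 libraries. All SOX11 libraries lay below all controls, of which control 1 was the highest. ELOVL6 fell from 69.9 ± 4.55 to 62.4 ± 1.15 CPM (SD, n = 4), a log2 fold change of -0.16 ± 0.0451 (SE; edgeR adjusted p = 0.00886), and the call was lost without control 1 (-0.12, adjusted p = 0.0576).

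ELOVL5 (chromosome 6, 53267398-53349179) had 216, 204, 215 and 203 CPM in the control libraries and 225, 244, 221 and 218 CPM in the SOX11 libraries. The groups did not overlap, though SOX11 4 lay close to control 1. ELOVL5 rose from 209 ± 7.26 to 227 ± 11.7 CPM (SD, n = 4), a log2 fold change of 0.12 ± 0.0360 (SE; edgeR adjusted p = 0.0192). The call was lost without control 2 (adjusted p = 0.0810), control 4 (0.0779) or SOX11 2 (0.0930).

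FADS2, the Δ6-desaturase of polyunsaturated fatty acids, had 405, 352, 395 and 343 CPM in the control libraries and 462, 456, 413 and 396 CPM in the SOX11 libraries. SOX11 1, 2 and 3 lay above every control, and SOX11 4 lay below control 1. The log2 fold change was 0.21 ± 0.0681 (SE; 95% interval 0.05 to 0.36), and edgeR gave an adjusted p of 0.0633, short of the threshold. FADS2 was called without control 1 (edgeR adjusted p = 0.0278), control 3 (0.0452) or SOX11 4 (0.0158), and by limma-voom (0.00277) and DESeq2 (0.0498). FADS1, the Δ5-desaturase that lies beside it on chromosome 11, had 422 ± 29.1 and 437 ± 35.9 CPM (log2 fold change 0.05; 95% interval -0.10 to 0.20). FADS2 shares exonic positions with FADS1 on the opposite strand and with FEN1 on its own strand.

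SCD, the Δ9-desaturase that makes oleate, had the highest level per length of all 31 genes, 242 RPKM. SCD had 1410, 1167, 1431 and 1143 CPM in control libraries 1 to 4 and 1328, 1520, 1211 and 1169 CPM in SOX11 libraries 1 to 4. The groups overlapped over nearly their whole range, as for INSIG1. The log2 fold change was 0.02 ± 0.118 (SE; 95% interval -0.26 to 0.31; edgeR adjusted p = 0.929). A rise or a fall of SCD inside that interval is therefore not excluded. ACLY, which splits citrate into the acetyl-CoA used by both routes, was next per length at 128 RPKM and far tighter, with a log2 fold change of 0.05 (95% interval -0.01 to 0.11; adjusted p = 0.211). FASN, the fatty acid synthase, had 586 ± 15.1 and 604 ± 49.2 CPM (0.04), and ACSS2, which activates acetate, had 37.1 ± 4.35 and 34.6 ± 3.74 CPM (-0.10). Neither was called.

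**Figure D2:**
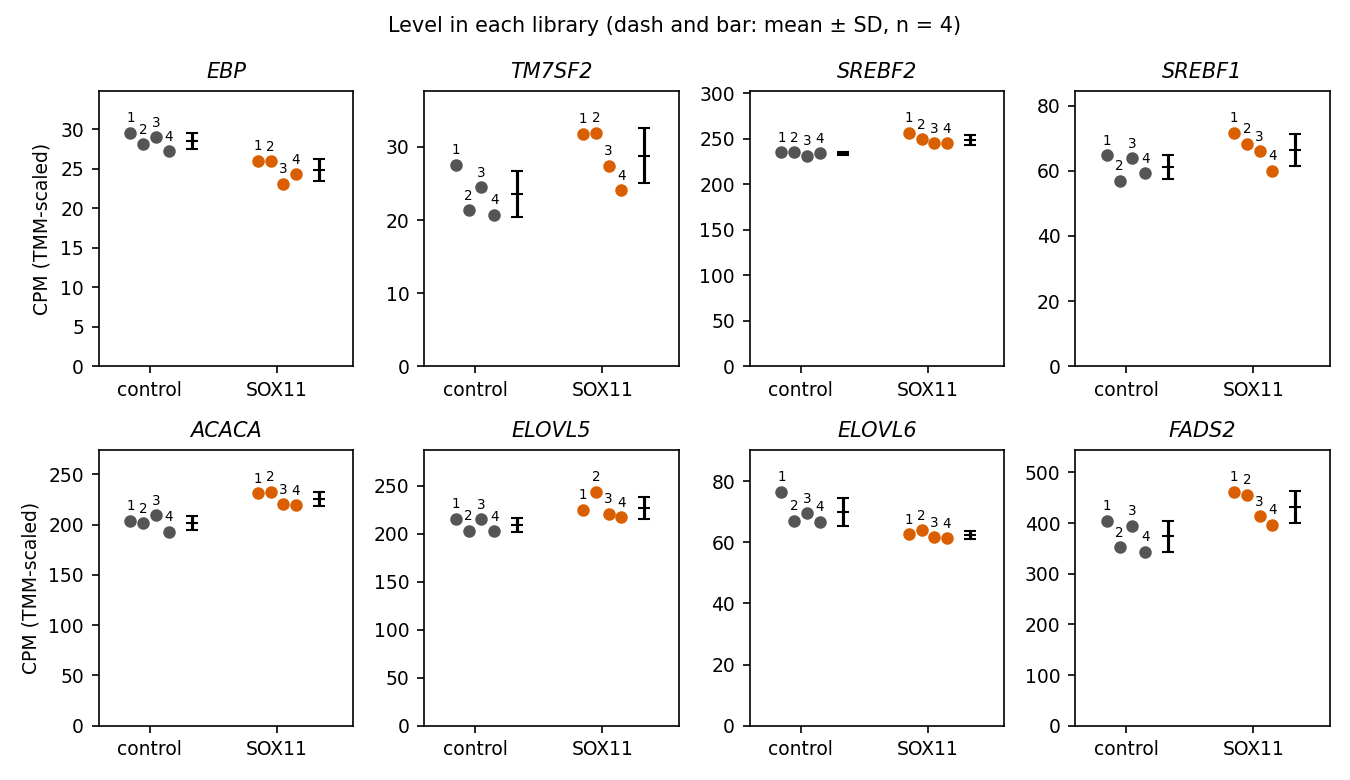
CPM in each library (points, numbered by replicate) with mean ± SD (dash and bar, n = 4 per group) for the 5 called genes (EBP, SREBF2, ACACA, ELOVL5, ELOVL6) and 3 of those not called (TM7SF2, SREBF1, FADS2); each vertical axis starts at 0. The called genes show no overlap between groups, whereas SOX11 4 falls among the controls for TM7SF2, SREBF1 and FADS2.

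Within each group the synthesis genes lay high or low together from library to library. Control 1 lay above the control mean for 28 of the 31 genes and control 3 for 22, while control 2 did so for 4 and control 4 for 3. SOX11 1 and SOX11 2 lay above the SOX11 mean for 26 and 25 genes, SOX11 3 for 6 and SOX11 4 for 0. Control 1 was above its group mean for all 17 sterol branch genes and control 4 for none of them. In the fatty acid branch, control 3 was above for 8 of 9, control 2 for 0 and SOX11 4 for 0. These counts were not made over all genes tested, so the shared direction is not shown to be particular to the set. SREBF2 and ACLY varied little between libraries, with highest-to-lowest ratios of 1.02 and 1.05 in the control group and 1.05 and 1.03 in the SOX11 group.

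**Figure D3:**
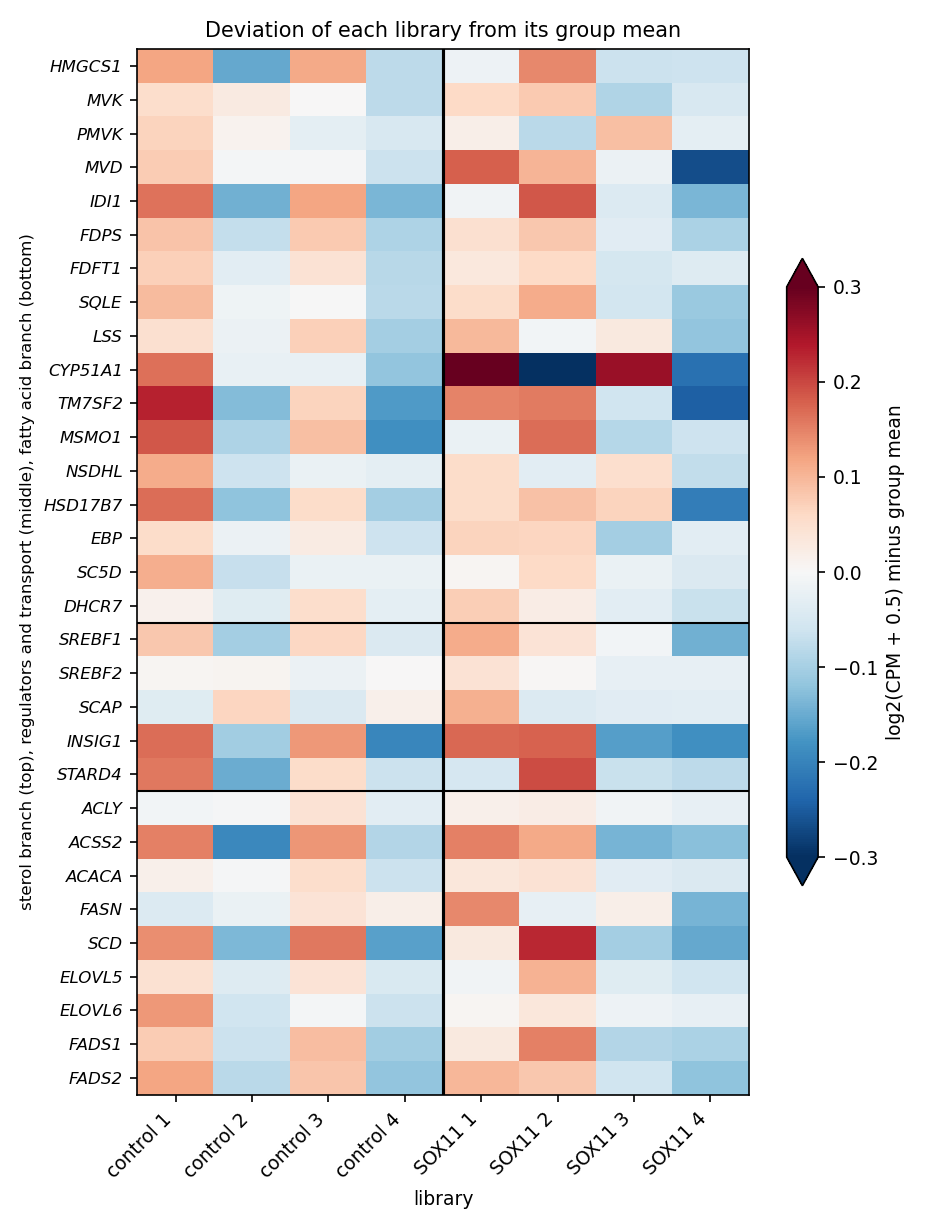
Deviation of each library from the mean of its own group, in log2(CPM + 0.5), for the 31 genes (rows, by group of genes) and 8 libraries (columns); red is above and blue below the group mean, and the scale ends at ±0.3. Controls 1 and 3 and SOX11 1 and 2 are mostly red, and controls 2 and 4 and SOX11 3 and 4 mostly blue, in all 3 groups of genes.

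The spread between libraries is set here beside that of other genes. Where the mean was 20 CPM or more, the highest library exceeded the lowest by at least 1.2-fold in the control group for 9 of 30 synthesis genes and for 6.41% of 7863 genes, and in the SOX11 group for 9 of 30 and 7.43%. The median ratio was 1.13 for the members and 1.09 for all genes in the control group, and 1.16 and 1.1 in the SOX11 group. Examples, given as the ratio in the control and then the SOX11 group, were TM7SF2 (1.33 in both), INSIG1 (1.29 in both), SCD (1.251 and 1.30), ACSS2 (1.27 and 1.23) and MSMO1 (1.30 and 1.19). For each of these genes the group means lay closer together than the highest and lowest library of either group.

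Genes around both routes were examined next. A list of 49 genes of sterol transport, storage and control and of other fatty acid metabolism was taken, of which 48 were tested (THRSP was not). Of these, 7 were called higher and 11 lower, 37.5%, against 20% of all genes. On the sterol side 4 of 20 were higher and 6 lower, and on the fatty acid side 3 of 28 were higher and 5 lower. The difference from the synthesis genes was not tested. In 16 settings, 9 of the 18 calls held throughout, 1 higher (CPT1A) and 8 lower (ELOVL2, NPC2, ELOVL1, ABCA1, NPC1, ACSL4, SCARB1 and INSIG2). The other 9, named after their values were seen, lost the call in at least 1 setting. Of these, 6 were higher: GGPS1, an isoprenoid synthase, MBTPS1, a protease that cleaves SREBPs, the NF-Y subunits NFYA (0.12) and NFYB (0.14), ACACB, the mitochondrial acetyl-CoA carboxylase, and DGAT1, a triglyceride synthase. The lower ones were ACAT2 (-0.10), ME1 (-0.13) and HSD17B12 (-0.18), which supply acetoacetyl-CoA, NADPH and a step of chain elongation. GGPS1, NFYA, DGAT1, ACAT2 and HSD17B12 share exonic positions with other annotated genes, so part of their counts may belong to those.

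On the sterol side, 5 calls held in every setting. ABCA1, which exports cholesterol from the cell, had the largest fall, to 0.544 of the control level. It had 4.60, 4.49, 5.91 and 4.71 CPM in the control libraries and 2.41, 3.37, 2.37 and 2.47 CPM in the SOX11 libraries, with no overlap (log2 fold change -0.88 ± 0.150, SE; edgeR adjusted p = 6.06e-05). NPC2 and NPC1 pass cholesterol out of the lysosome in turn. NPC2 fell from 89.5 ± 1.90 to 68.9 ± 4.79 CPM (SD, n = 4; -0.38, edgeR adjusted p = 1.44e-07) and NPC1 from 380 ± 10.0 to 332 ± 16.6 CPM (-0.19, adjusted p = 8.06e-05). NPC2 shares exonic positions with ISCA2 and NPC1 with RMC1, each on the opposite strand, and the strand setting of the counter is not known. SCARB1, a receptor that takes up cholesterol esters from HDL, fell from 174 ± 2.01 to 158 ± 2.07 CPM (-0.14, edgeR adjusted p = 0.00161). INSIG2, the sister of INSIG1 and named after its values were seen, fell from 24.8 ± 0.779 to 21.4 ± 1.38 CPM (-0.21, edgeR adjusted p = 0.0127). Other genes of cholesterol transport and release on the list, also named after their values were seen, were not called: ABCG1 (0.47), OSBP (-0.03), STARD3 (0.01) and LIPA (-0.06).

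On the fatty acid side, ELOVL2 and ELOVL1, elongases outside the synthesis set, fell. ELOVL2, which lengthens very long polyunsaturated chains, had 68.7, 70.5, 61.6 and 67.2 CPM in the control libraries and 45.2, 45.5, 46.2 and 49.0 CPM in the SOX11 libraries. The groups lay far apart, with a log2 fold change of -0.53 ± 0.0475 (SE; edgeR adjusted p = 8.78e-10). ELOVL1, which lengthens saturated very long chains, fell from 94.7 ± 2.56 to 76.1 ± 1.27 CPM (-0.32, edgeR adjusted p = 2.28e-07). ELOVL3 (0.07), ELOVL4 (0.21) and ELOVL7 (0.04), named here after their values were seen to complete the family, were not called. ACSL4, which activates arachidonate for membrane lipids, fell from 86.0 ± 3.19 to 74.9 ± 4.15 CPM (-0.20, edgeR adjusted p = 0.000930). It shares exonic positions with KCNE5 on the same strand.

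CPT1A, which carries fatty acids into mitochondria for oxidation and is inhibited by the malonyl-CoA that ACACA makes, rose. CPT1A had 37.6, 37.0, 32.8 and 28.8 CPM in the control libraries and 49.3, 44.8, 41.9 and 42.5 CPM in the SOX11 libraries. The groups did not overlap, at a log2 fold change of 0.39 ± 0.0714 (SE; edgeR adjusted p = 0.000578).

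**Figure D4:**
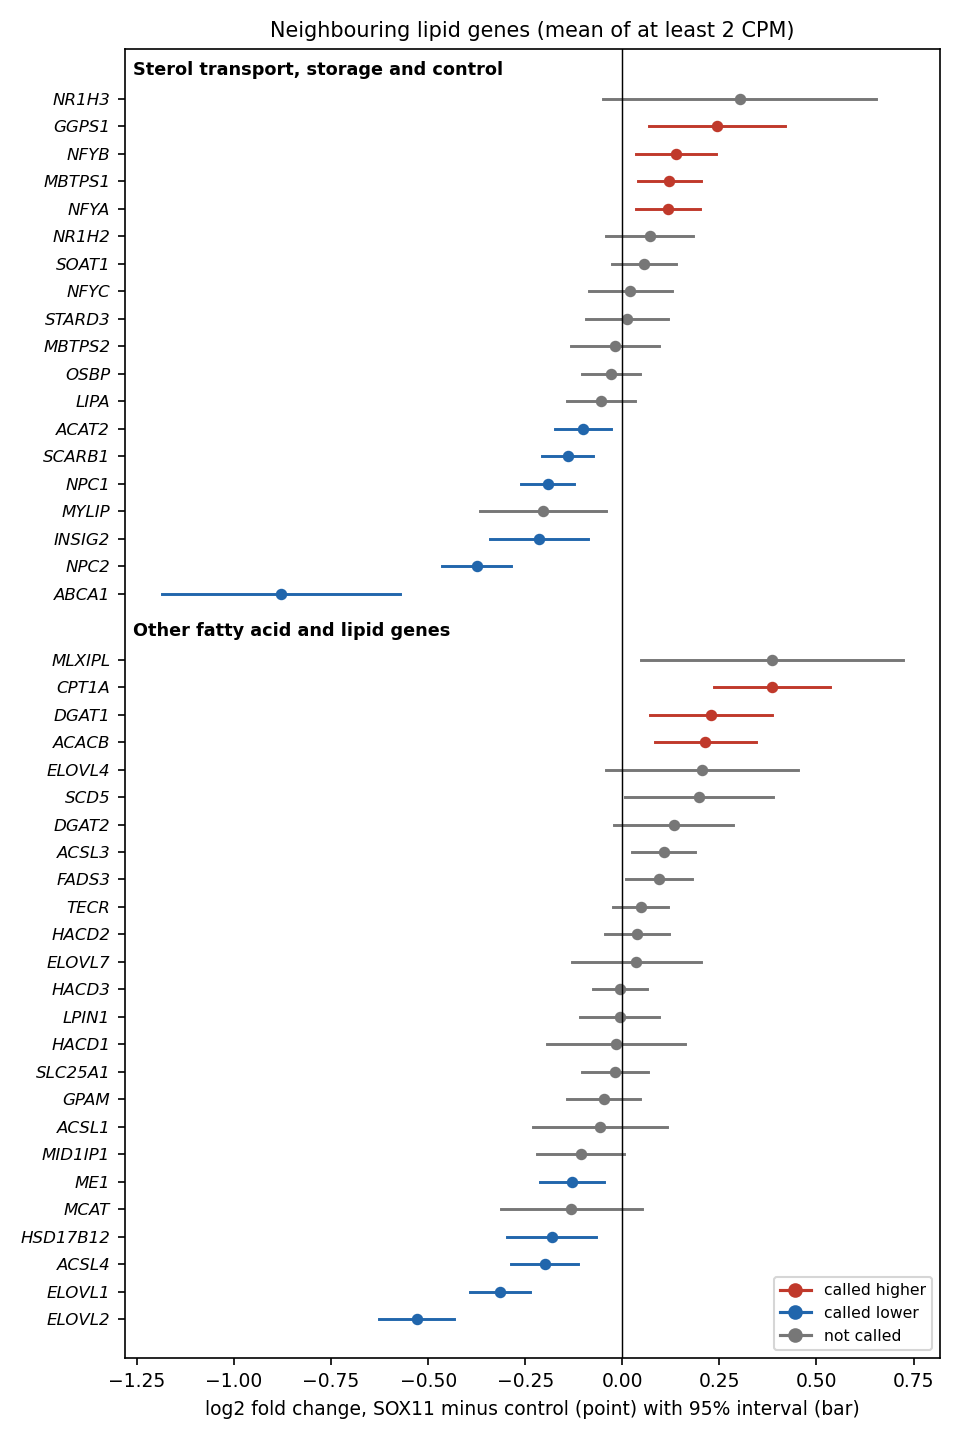
Log2 fold change (point, SOX11 minus control) with 95% interval (bar) for the 44 neighbouring lipid genes whose mean was 2 CPM or more; red and blue mark genes called higher or lower at an adjusted p below 0.05 in edgeR. ABCA1 (-0.88), ELOVL2 (-0.53), NPC2 (-0.38) and ELOVL1 (-0.32) lie farthest to the left, and CPT1A (0.39) is the called gene farthest to the right.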

How the data were processed

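RNA from 4 control and 4 SOX11 libraries of DU145 was extracted with a Maxwell RSC simplyRNA kit and made into poly(A) libraries with TruSeq Stranded mRNA, per the labels' protocols. The submitters' processing notes list cutadapt, FastQC, STAR 2.7.0e and GRCh38. Which program counted reads, on which annotation and with which strand setting, is not given in the sources used here. Raw counts per Ensembl gene, without normalization, are what the authors deposited; each of the 8 columns was matched to a sample by name. Symbols matched 32053 of 32066 identifiers. Coordinates and exon lengths (for RPKM) are from GENCODE 29 on GRCh38, which may not be the annotation counted on.

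Genes were filtered with filterByExpr (minimum count 10), TMM-scaled, and tested with edgeR 4.0.16 (robust quasi-likelihood F-test, group as the only term) in R 4.3.3, with Benjamini-Hochberg adjustment over all 15665 genes and a threshold of 0.05. CPM are TMM-scaled. SE is the log2 fold change over the root of its F statistic. No 2 libraries of a group were identical or agreed within sampling noise (chi-square per degree of freedom 1.43 to 3.25). On 5 simulated data sets for SOX11 versus control (15447 to 15489 genes, 200 of them changed), 11.8% of 1.1-fold, 65% of 1.25-fold, 74.2% of 1.5-fold and 91.4% of 2-fold changes were called, and 7.75% of the calls were false. Far fewer genes were changed there than were called in the data, so these shares need not hold for the data.

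Alternatives were RLE or upper quartile scaling, leaving SOX11 out of library sizes, testing every gene, requiring 1 CPM in 4 libraries, DESeq2 1.42.0, limma 3.58.1 voom, a block for the replicate number, and dropping each of the 8 libraries. Leaving SOX11 out of library sizes repeated the main values of the members, since the TMM factors were computed afterwards. It is counted among the 16 settings but is no separate check. The members and lists were chosen with earlier results of these data known. Values in every library are given for called members, the most abundant member per length of each group of genes, and the 4 uncalled members with the largest change, and, outside this rule, for HMGCS1, MSMO1 and INSIG1; neighbouring genes were named if called, up to the 8 with the smallest adjusted p.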

Additional observations from a re-analysis of the deposited data

Results flagged for a closer look

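In 7 of 106 groups of 4 libraries examined (the 31 members, the 18 called neighbouring genes, SOX11 and the 3 summed levels, in each of the 2 groups), 1 library stood apart from the other 3 by Dixon's criterion at the 95% level, and chance gives about 1 in 20. HSD17B7 was lowest in SOX11 4, at 20.6 CPM against 24.9 to 25.4 CPM in the other SOX11 libraries. SCAP was highest in SOX11 1, at 69.3 CPM against 62.6 to 63 CPM. STARD4 was highest in SOX11 2, at 52.9 CPM against 43.6 to 44.5 CPM. INSIG2 was highest in control 1, at 26 CPM against 24.4 to 24.5 CPM, and in SOX11 2, at 23.4 CPM against 20.5 to 20.9 CPM. ABCA1 was highest in control 3, at 5.91 CPM against 4.49 to 4.71 CPM, and in SOX11 2, at 3.37 CPM against 2.37 to 2.47 CPM. For INSIG2 and ABCA1 the library that stood apart did not close the gap between the groups.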

How the results depend on the processing

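Over the whole table, 2407 (DESeq2) to 3130 genes were called, and 2466 to 3057 with a library left out. Of the members, 5 were called, 5 to 7 under the other settings, and 3 to 9 with a library left out: 3 without control 2, control 4 or SOX11 3, and 9 without SOX11 4. Sterol branch calls (1) became 2 without a filter, with DESeq2 and with limma-voom, and 0 (without SOX11 3) to 3 (without SOX11 4) with a library left out. Regulator calls (1) became 0 without a filter and with DESeq2, and 0 to 2 with a library left out; fatty acid branch calls (3) ran from 2 to 4. With the replicate number as a block, 2899 genes were called, 6 of them members, 2 in the sterol branch and 0 regulators. By that fit TM7SF2 (adjusted p = 0.00359) and FADS2 (adjusted p = 0.000553) were called, and SREBF2 (adjusted p = 0.0535) was not. The labels do not say whether the numbers pair the libraries, and the correlations below cannot settle it. Deviations of same-numbered libraries correlated at 0.08, -0.33, -0.16 and 0.24 over 9697 genes, and 1 control of 4 correlated best with the SOX11 library of its own number.

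Without a filter, TM7SF2 (adjusted p = 0.000128) and FADS2 (adjusted p = 3.71e-07) were called; the cause was not tested. All 25 sign changes were in 9 uncalled members, all near 0 except CYP51A1, which lay at -0.0918. MVK became -0.0043 without a filter, and LSS 0.0065 with upper quartile scaling and 0.0013 with the 1 CPM filter. With a library left out, log2 fold changes ran from -0.0236 to 0.0342 for MVK, -0.0958 to 0.0275 for IDI1, -0.0696 to 0.0016 for SQLE, -0.0346 to 0.0344 for LSS, -0.2264 to 0.0384 for CYP51A1, -0.0837 to 0.0355 for INSIG1, -0.0092 to 0.0842 for FASN, -0.059 to 0.075 for SCD and -0.0029 to 0.0811 for FADS1. Calls of neighbouring genes ran from 12 to 18. With 4 libraries a group, changes near 1.1-fold were called in 11.8% of simulated cases. Those simulations changed 200 genes, while 3130 genes were called in the data, so the adjusted threshold differed. The simulated share therefore does not give how often such a change is called here, where SREBF2 (1.06-fold) and ELOVL5 (1.08-fold) were called.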
